A study of Mus musculus with 9 samples.

Results

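Resident cardiac macrophages were followed here through 10 marker genes, Adgre1, Aif1, C1qa, C1qb, C1qc, Lyve1, Cd68, Csf1r, Mrc1 and Cd163, in whole mouse hearts. All non-control probes whose transcript accession belongs to one of these genes were taken, which gave 15 probes of 41174 on the array, and 10 genes of 31758 gene names. The study took total RNA from whole hearts of 5 WT (wild-type) animals and 4 of the genotype RORasg/sg. All were untreated C57BL/6 male mice aged 3 to 4 months, given NIH31 diet after weaning at 3 weeks. RORasg/sg denotes homozygosity for the staggerer allele of Rora, an intragenic deletion that removes part of the ligand-binding domain of the nuclear receptor RORα. The allele is carried in the germ line, so every cell of the heart has it, and whether WT mice were littermates is not given in the sources used here. Each heart was hybridised to its own single-colour array.

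Macrophages live in the healthy heart between the muscle cells and along vessels, where they take up debris and dying cells and keep contact with the conduction system. A resident population seeded before birth renews itself locally and is marked by scavenger and endocytic receptors such as LYVE1, CD163 and the mannose receptor, while monocytes from blood add further cells. Tissue macrophages depend on signalling through the receptor CSF1R and are a main source of C1q, the recognition molecule of the classical complement pathway.

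Values below are log2 of the processed signal minus the 75th percentile of that array, so 0 is the level of the probe at that percentile and a negative value lies under it. They compare one probe between hearts and do not compare one gene with another. The 75th percentile signal ran from 436 to 684 in WT hearts and from 264 to 773 in RORasg/sg hearts. It was under 500 on 4 arrays, called dimmer below, which were WT 4 and RORasg/sg 2, 3 and 4. The other 5 arrays, WT 1, 2, 3 and 5 and RORasg/sg 1, are called brighter. Array brightness was therefore unevenly spread over the genotypes, and its part in the results below was not tested apart from the values given beside them. All spots were unsaturated, and 80.9% to 88.0% of probes were well above background. As a check of the genotype labels, the Rora probe that stands for the gene, A_51_P477779, read 2.72 ± 0.699 (SD, n = 5) in WT and -1.41 ± 1.21 (SD, n = 4) in RORasg/sg hearts, and every RORasg/sg heart was below every WT heart. Its difference of -4.13 had an adjusted p of 0.224 in limma. Of the other Rora probes, A_52_P652442 differed by -5.34 (SE 0.824), also without overlap, and A_52_P652950 by -1.08 (SE 0.775), with overlap and above background in 2 of 4 RORasg/sg hearts. Whether the probes lie in the deleted part was not analysed here.

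All 10 markers had a probe well above background on all 9 arrays. The tissue label was checked on 12 cardiomyocyte genes, whose summed level ran from 9.77 to 10.1 in WT and from 9.22 to 10.2 in RORasg/sg hearts, with 11 of them above background on all arrays.

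The 10 markers did not move as one block. In limma, 7 of the 10 had a higher mean and 3 a lower mean in RORasg/sg hearts, and none passed an adjusted p of 0.05. Over all 27778 genes, 1 gene passed (0.0036%), listed under the name AI593442. It is no marker, differed by -4.74 on the log2 scale, and is named after its value was seen. At an unadjusted p under 0.05, 2 of the 10 markers were higher, C1qc and Lyve1, and 0 were lower, against 4.94% of all genes higher and 6.62% lower. The median difference of the 10 markers was 0.52 on the log2 scale, beside 0.41 for all genes, and 6 of the 10 lay above that median of all genes. The median of all genes differed with signal level. In 5 groups from lowest to highest level it was 0.55, 0.53, 0.47, 0.12 and 0.20. Adgre1, Aif1, C1qc, Lyve1 and Cd163 were in the highest group, C1qb, Csf1r and Mrc1 in the next, and Cd68 and C1qa in lower groups. The upward shift of the median gene depends on the scaling and was -0.17 on the signal as deposited, where the median of the markers was -0.050. In whole-heart RNA, fewer cells of a type and less RNA per cell cannot be told apart.

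**Figure D1:**
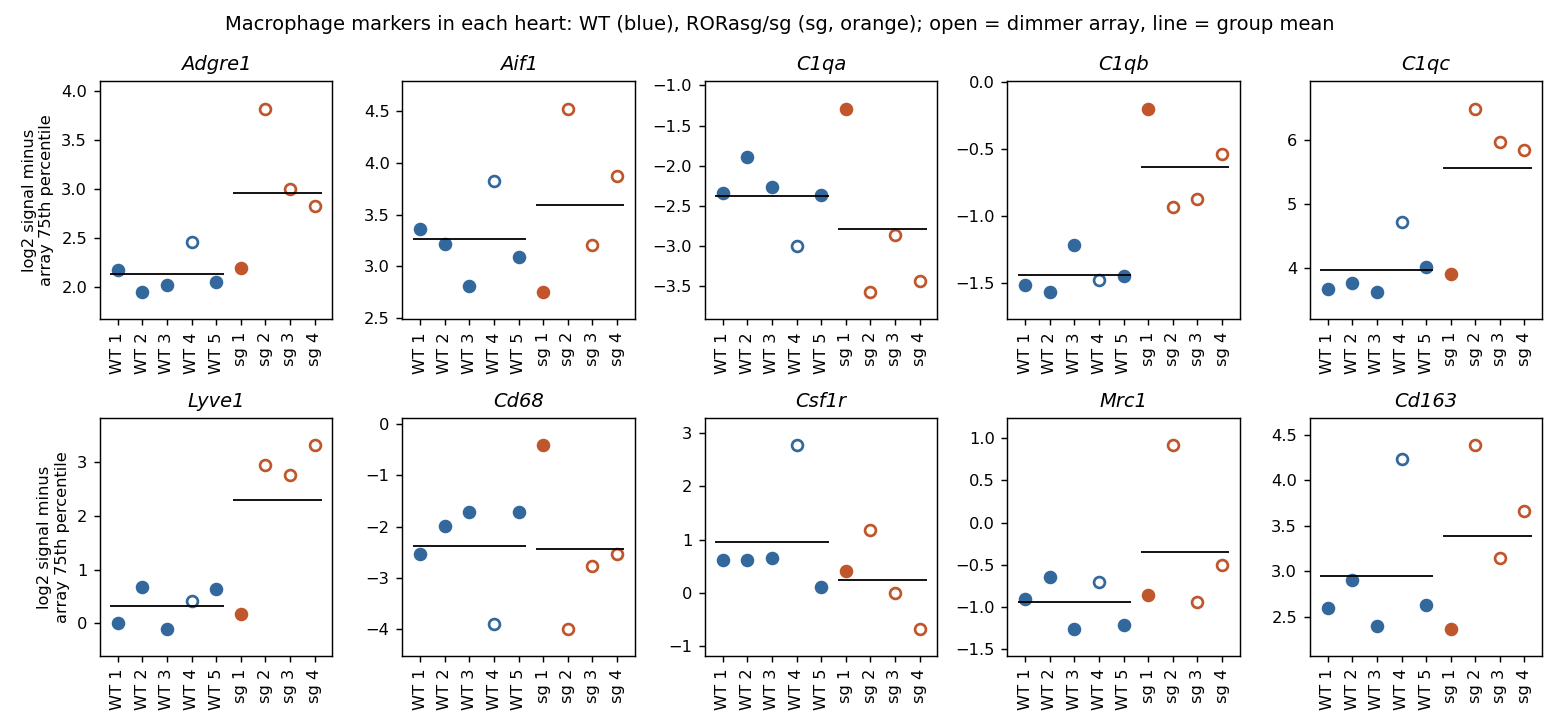
Scaled log2 signal (log2 signal minus the array's 75th percentile) of each of the 10 markers in the 9 hearts, 1 panel per gene, with WT in blue, RORasg/sg in orange, dimmer arrays as open symbols and group means as lines. C1qc and Lyve1 were higher in RORasg/sg 2, 3 and 4 than in any WT heart, while RORasg/sg 1 lay among the WT hearts, and C1qb was the only marker whose groups did not overlap.

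The 3 C1q chains assemble into one hexameric protein that binds antibody complexes and dying cells and starts the classical complement cascade. Their genes are neighbours on mouse chromosome 4. The chains differed in how they read on these arrays: C1qc and C1qb had higher means in RORasg/sg hearts and C1qa a lower mean, and none passed the adjusted threshold.

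C1qc, which encodes the C chain, read 3.67, 3.76, 3.62, 4.72 and 4.00 in WT 1 to 5 and 3.90, 6.49, 5.97 and 5.84 in RORasg/sg 1 to 4. RORasg/sg 2, 3 and 4 exceeded every WT heart, whereas RORasg/sg 1 lay inside the WT range, whose highest value was the dimmer array WT 4. The group means were 3.95 ± 0.451 (SD, n = 5) and 5.55 ± 1.14 (SD, n = 4), a difference of 1.60 (SE 0.494) or 3.02-fold, with a limma adjusted p of 0.385 over all genes. That difference was above those of 97.2% of genes. Before scaling, the deposited signal of C1qc was 8678, 8740, 7752, 11454 and 8764 in WT and 11523, 26175, 24492 and 15151 in RORasg/sg hearts. On that scale all 4 RORasg/sg hearts were above all 5 WT hearts, which held for no other marker and for 0.346% of all genes.

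C1qb, which encodes the B chain, read -1.52, -1.57, -1.22, -1.48 and -1.45 in WT 1 to 5 and -0.20, -0.93, -0.87 and -0.54 in RORasg/sg 1 to 4. All 4 RORasg/sg hearts were above all 5 WT hearts, and WT 4 lay inside the range of the other WT hearts. C1qb was the only 1 of the 10 markers whose groups did not overlap in this way, beside 1.12% of all genes. The means were -1.45 ± 0.135 (SD, n = 5) and -0.64 ± 0.339 (SD, n = 4), and the difference of 0.81 (SE 0.384), or 1.75-fold, had a limma adjusted p of 0.418. On the deposited signal the groups did overlap, with 156 to 271 in WT hearts and 153, 181, 213 and 674 in RORasg/sg hearts, the highest being RORasg/sg 1.

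C1qa, which encodes the A chain, read -2.34, -1.89, -2.26, -3.00 and -2.36 in WT 1 to 5 and -1.29, -3.57, -2.85 and -3.43 in RORasg/sg 1 to 4. RORasg/sg 1 was above every WT heart, and RORasg/sg 2 and 4 were below every WT heart, so the 4 RORasg/sg hearts fell on both sides of the WT range. The lowest WT value was again that of the dimmer array WT 4. The difference of means was -0.41 (SE 0.517), with a limma adjusted p of 0.622. The deposited signal was 54.5 in WT 4 and 107 to 174 in the other WT hearts, and 317, 24.6, 54.0 and 24.6 in RORasg/sg 1 to 4, all well above background.

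Because ratios within an array do not depend on its scaling factor, the chains were also set against each other, as a log2 ratio of their probes that is read only between hearts. A ratio can still move with array brightness. Over the 9 arrays, the scaled values correlated with log2 of the 75th percentile at 0.94 for C1qa, -0.24 for C1qb and -0.93 for C1qc. Because that percentile is subtracted in the scaled value, a probe with unchanged deposited signal would correlate negatively with it by construction. The part of brightness in the ratios was not tested. The C1qa to C1qb ratio was -0.82, -0.32, -1.04, -1.52 and -0.91 in WT 1 to 5 and -1.09, -2.63, -1.98 and -2.88 in RORasg/sg 1 to 4. RORasg/sg 2, 3 and 4 were below every WT heart, and RORasg/sg 1 was inside the WT range. The difference of means was -1.22, with p = 0.0317 in a two-sided exact permutation test over the 9 hearts and 0.111 after Benjamini-Hochberg adjustment over the 4 ratios tested. The C1qa to C1qc ratio differed by -2.01 (adjusted p = 0.127 in the same exact test), and its WT values included -7.71 in WT 4 against -6.36 to -5.65 in the other WT hearts. The C1qb to C1qc ratio differed by -0.79 (adjusted p = 0.302 in the exact test), with WT 4 again the lowest WT heart at -6.20 and RORasg/sg 1 the highest of all hearts at -4.10. Without RORasg/sg 1 the 3 chain ratios differed by -1.58, -3.06 and -1.48 in that order, each with the adjusted p of 0.0179 that is the smallest 8 hearts allow. The call on all 3 chain ratios thus rests on whether that heart is included. Without it, every RORasg/sg array was dimmer than every WT array, so genotype and brightness cannot be told apart there.

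**Figure D2:**
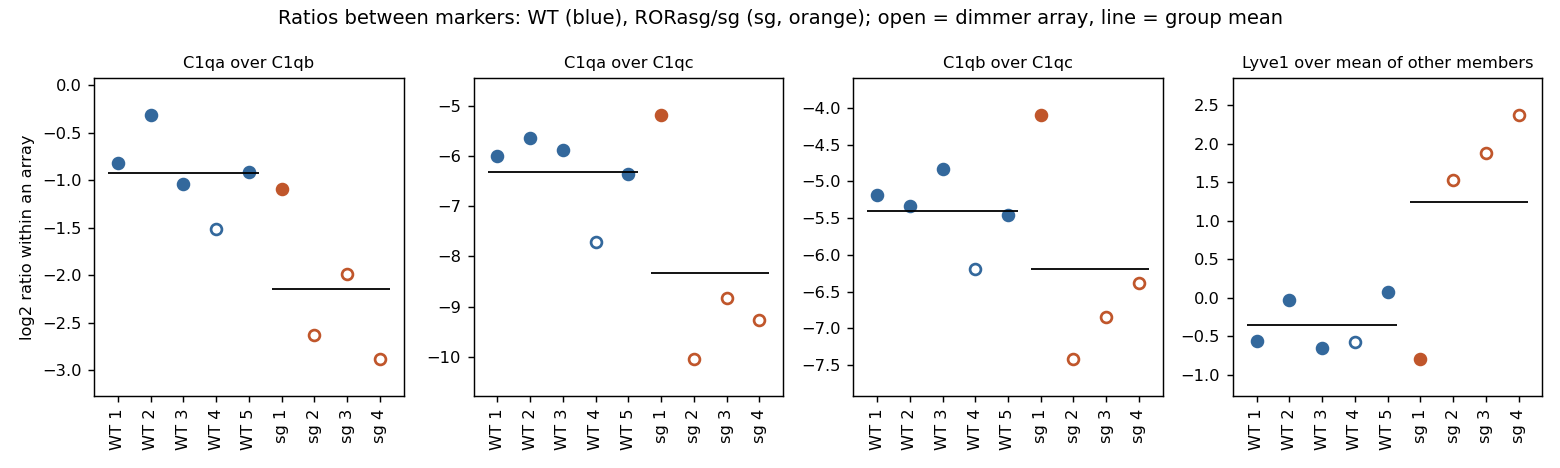
Log2 ratios of C1qa to C1qb, C1qa to C1qc, C1qb to C1qc, and Lyve1 to the mean of the other 9 markers within each array, with WT in blue, RORasg/sg in orange, dimmer arrays as open symbols and lines at the group means. In all 4 panels RORasg/sg 2, 3 and 4 stand away from the WT hearts on one side; WT 4 has the lowest WT value in the 3 C1q panels and sits among the other WT hearts for Lyve1, at -0.58.

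The 250 bases upstream of the annotated start of C1qc, C1qb and Aif1 are shown because the genotype affects a DNA-binding receptor, and because C1qc and C1qb are neighbouring genes that both had higher means and Aif1 is the other marker with a match to the ROR half-site. The sequences are RefSeq's for assembly GRCm38.p6, written along the gene's strand. Capitals mark matches to the ROR half-site AGGTCA, which reads TGACCT on the opposite strand, or to a PU box core GAGGAA, which reads TTCCTC there, a sequence bound by PU.1, the myeloid master regulator.
C1qc, chr4:136892915-136893164, minus strand: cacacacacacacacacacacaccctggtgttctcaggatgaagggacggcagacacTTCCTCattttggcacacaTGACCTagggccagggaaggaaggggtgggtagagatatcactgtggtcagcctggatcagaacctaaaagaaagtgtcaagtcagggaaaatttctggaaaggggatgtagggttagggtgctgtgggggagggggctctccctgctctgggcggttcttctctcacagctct
C1qb, chr4:136886201-136886450, minus strand: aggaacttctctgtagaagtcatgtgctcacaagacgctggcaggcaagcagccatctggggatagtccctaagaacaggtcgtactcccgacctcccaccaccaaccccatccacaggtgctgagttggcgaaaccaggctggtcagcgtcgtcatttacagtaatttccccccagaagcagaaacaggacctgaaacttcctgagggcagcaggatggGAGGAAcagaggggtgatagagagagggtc
Aif1, chr17:35176053-35176302, minus strand: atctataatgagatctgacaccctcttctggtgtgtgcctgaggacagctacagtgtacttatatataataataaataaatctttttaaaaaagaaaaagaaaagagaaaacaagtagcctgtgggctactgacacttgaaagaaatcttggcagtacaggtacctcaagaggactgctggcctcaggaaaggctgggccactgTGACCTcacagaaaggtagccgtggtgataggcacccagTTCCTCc

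Promoter sequences were matched for 6 of the 10 markers, Aif1, C1qb, C1qc, Cd68, Mrc1 and Cd163, and none was used for Adgre1, C1qa, Csf1r and Lyve1. Entries on a single chromosome were passed over for the markers but not among the 32851 promoters set beside them. Both strands were searched, and no match of one motif overlapped a match of the other in these 6. The ROR half-site was found in 2 of the 6, starting 174 bases upstream in C1qc and 46 bases upstream in Aif1, beside 14.0% of 32851 promoters searched the same way. The PU box core was found in 5 of the 6, all but Cd163, beside 23.3% of those promoters, and 3 of its matches lay in Mrc1. C1qc holds both motifs and had a difference of 1.60, and Aif1 holds both and had a difference of 0.33. A match is a run of letters and not a measured binding site, and no match says only that these letters are not in this window.

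LYVE1, a hyaluronan receptor named for lymphatic vessel endothelium, is also on the surface of a resident macrophage subset near vessels. Its brighter probe, A_52_P686785, had the largest difference of means among the probes that stand for the markers, although with the mean of all probes of a gene Lyve1 was at 1.11, below C1qc. The probe read 0.0093, 0.67, -0.097, 0.41 and 0.64 in WT 1 to 5 and 0.18, 2.95, 2.76 and 3.32 in RORasg/sg 1 to 4. RORasg/sg 2, 3 and 4 were clearly above all WT hearts, RORasg/sg 1 was in the middle of them, and the dimmer array WT 4 lay inside the range of the other WT hearts. The means were 0.33 ± 0.355 (SD, n = 5) and 2.30 ± 1.43 (SD, n = 4), a difference of 1.97 (SE 0.616) or 3.93-fold, with a limma adjusted p of 0.385. Its difference was above those of 99.2% of genes. In deposited signal, Lyve1 was 579 to 1024 in WT hearts and 878, 2252, 2642 and 2635 in RORasg/sg 1 to 4.

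A second Lyve1 probe, A_51_P155052, did not show that separation. It read -5.34, -3.56, -4.24, -2.37 and -2.86 in WT 1 to 5 and -2.52, -4.32, -3.78 and -3.08 in RORasg/sg 1 to 4. The RORasg/sg hearts lay inside the WT range throughout, and the difference was 0.25 (SE 0.638). This probe was well above background on all 9 arrays, although its deposited signal was only 14.6 to 135. Where on the transcript either probe lies was not analysed here.

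The scaled value of Lyve1 correlated with log2 of the 75th percentile at -0.91 over the 9 arrays. Subtracting that percentile in the scaled value builds in part of a negative correlation here too. Lyve1 was next set against the other markers within each array, as Lyve1 minus the mean of the other 9. That value was -0.56, -0.034, -0.66, -0.58 and 0.070 in WT 1 to 5 and -0.80, 1.52, 1.88 and 2.37 in RORasg/sg 1 to 4. The RORasg/sg hearts were thus split, with RORasg/sg 1 lowest of all 9 and the other 3 highest. The difference was 1.59, with p = 0.0556 in the two-sided exact permutation test and 0.111 after adjustment over the 4 ratios. With the mean of all probes of each gene it was 0.77 (adjusted p = 0.212 in the exact test). Without RORasg/sg 1 it was 2.28, at the adjusted p of 0.0179 that is the smallest 8 hearts allow. Genotype and brightness cannot be told apart in those 8 hearts either.

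Lyve1 is shared with lymphatic endothelium, so 9 other lymphatic genes were read beside it. Of these, 3 had higher and 6 lower means in RORasg/sg hearts, with a median difference of -0.48, and 8 of the 9 were above background on all arrays. None passed the adjusted threshold. Their summed level (log2 of summed scaled signal) ran from 4.20 to 4.73 in WT and from 3.96 to 5.25 in RORasg/sg hearts. Prox1, the factor that sets lymphatic identity, differed by -1.25 (SE 0.614) and Pdpn, the membrane glycoprotein podoplanin, by -1.20 (SE 0.578), the latter above background in 2 of 4 RORasg/sg hearts. Sema3d, a secreted guidance protein, went the other way at 2.44 (SE 0.528), with all RORasg/sg hearts above all WT hearts and a limma adjusted p of 0.342. The part of lymphatic cells in the Lyve1 values was not tested beyond these counts.

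CD163, which takes up haemoglobin bound to haptoglobin, and the mannose receptor MRC1, which binds sugars on glycoproteins and microbes, are the other endocytic receptors of the resident population. Cd163 read 2.59, 2.90, 2.39, 4.23 and 2.63 in WT 1 to 5 and 2.37, 4.39, 3.15 and 3.67 in RORasg/sg 1 to 4. Here WT 4 was nearly as high as the highest RORasg/sg heart, RORasg/sg 1 was the lowest of all 9, and the groups overlapped. The difference was 0.44 (SE 0.512), with a limma adjusted p of 0.595. It turned to -0.13 on the signal as deposited.

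Mrc1 read -0.91, -0.65, -1.26, -0.71 and -1.21 in WT 1 to 5 and -0.85, 0.92, -0.95 and -0.50 in RORasg/sg 1 to 4. RORasg/sg 2 alone stood well above the WT hearts, RORasg/sg 4 was just above them, and the other pair were within the WT range. The difference was 0.60 (SE 0.481), with a limma adjusted p of 0.472. Leaving out 1 heart at a time gave 0.18 to 0.80.

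CSF1R is the receptor for the growth factors CSF1 and IL-34, on which macrophage survival depends. Its gene has 3 probes, all well above background on all arrays, and the means of all 3 were lower in RORasg/sg hearts. The probe with the highest signal, A_52_P570471, read 0.61, 0.61, 0.66, 2.77 and 0.10 in WT 1 to 5 and 0.42, 1.18, 0.0018 and -0.67 in RORasg/sg 1 to 4. A single heart, WT 4, lay far above the rest, and the remaining WT and RORasg/sg hearts overlapped. The difference was -0.72 (SE 0.605), with a limma adjusted p of 0.487, and it was -0.26 without WT 4, a heart that therefore moves the value by more than 1.5 times.

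Of the other probes of Csf1r, one had its lowest and one its highest WT value in WT 4. A_51_P365885 read -0.088, -0.55, -0.15, -1.04 and -0.18 in WT 1 to 5 and 0.34, 0.83, -1.07 and -2.22 in RORasg/sg 1 to 4. WT 4 was the lowest WT heart of this probe, and the RORasg/sg hearts fell on both sides of the WT range. A_52_P602091 ran from -2.24 to -1.30, the value of WT 4, in WT hearts and from -2.80 to -1.64 in RORasg/sg hearts, again with overlap. Their differences were -0.13 (SE 0.619) and -0.45 (SE 0.424).

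Adgre1 encodes the adhesion receptor used most widely to identify mouse tissue macrophages. Its probe A_51_P251768 read 2.16, 1.95, 2.02, 2.46 and 2.05 in WT 1 to 5 and 2.18, 3.82, 2.99 and 2.82 in RORasg/sg 1 to 4. RORasg/sg 2, 3 and 4 were above every WT heart, RORasg/sg 1 was inside the WT range, and the highest WT heart was WT 4. The difference was 0.83 (SE 0.409), or 1.77-fold, with a limma adjusted p of 0.418. The second probe, A_52_P364727, was above background in 4 of 5 WT and 2 of 4 RORasg/sg hearts and read highest in RORasg/sg 1, at -0.012, and lowest in RORasg/sg 2, at -6.96, with a difference of -0.17 (SE 1.25).

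Aif1 encodes IBA1, an actin-binding protein of macrophages and microglia. Its probe A_51_P400543 read 3.36, 3.21, 2.81, 3.82 and 3.09 in WT 1 to 5 and 2.75, 4.53, 3.21 and 3.87 in RORasg/sg 1 to 4. The highest WT heart was WT 4, RORasg/sg 1 was the lowest heart of all, and the groups overlapped. The difference was 0.33 (SE 0.426; limma adjusted p 0.634), and its second probe, A_52_P2754, gave 0.12 (SE 0.428).

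Cd68, a glycoprotein of macrophage lysosomes, read -2.53, -1.99, -1.72, -3.91 and -1.71 in WT 1 to 5 and -0.41, -3.99, -2.77 and -2.54 in RORasg/sg 1 to 4. RORasg/sg 1 was the highest of all 9 hearts, and the lowest pair were WT 4 and RORasg/sg 2. The means were -2.37 ± 0.920 (SD, n = 5) and -2.43 ± 1.49 (SD, n = 4), and the difference of -0.055 (SE 0.705) had a limma adjusted p of 0.965. The deposited signal was 29.1 in WT 4 and 118 to 191 in the other WT hearts. It was 581, 18.4, 57.2 and 45.5 in RORasg/sg 1 to 4, and well above background on all arrays.

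**Figure D3:**
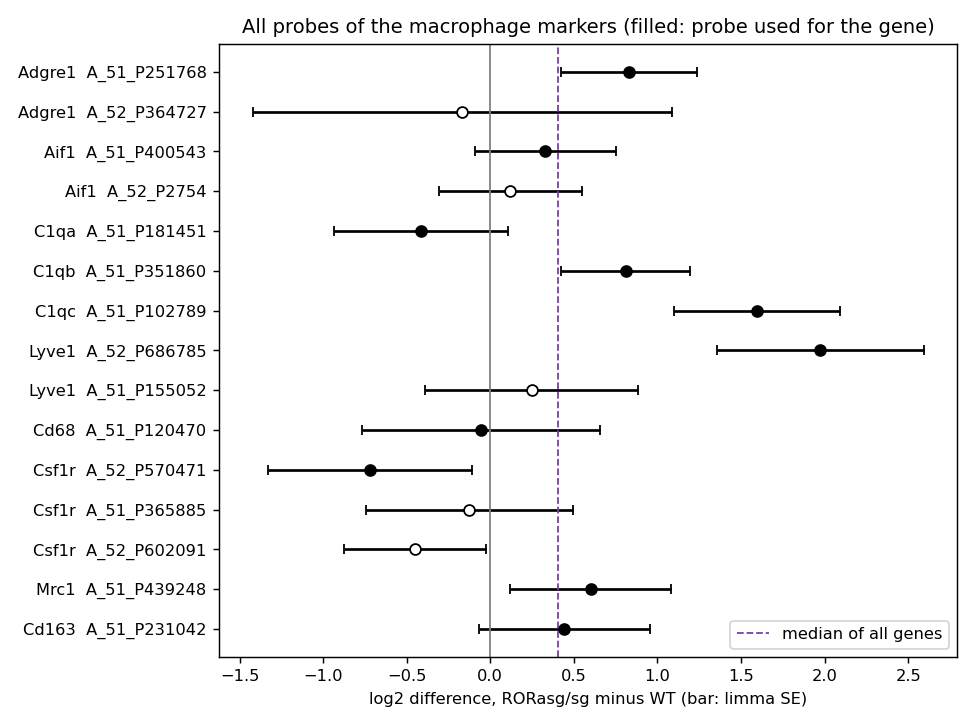
Log2 difference (RORasg/sg minus WT, 4 against 5 hearts) of all 15 probes of the 10 markers with the limma standard error as a bar; filled symbols are the probe used for the gene, and the dashed line is the median of all genes at 0.41. Lyve1 A_52_P686785 at 1.97 and C1qc at 1.60 lie farthest to the right, the second Lyve1 probe at 0.25 and the second Adgre1 probe at -0.17 lie near 0, and all 3 Csf1r probes lie left of 0.

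The markers fell into recurring arrangements across hearts. In RORasg/sg 2, 3 and 4, all dimmer arrays, 4 markers exceeded every WT heart in all 3 hearts (Adgre1, C1qb, C1qc and Lyve1), and none was below every WT heart in all 3. Of all genes with a value on every array, 27.2% were above and 7.73% below every WT heart in the same 3 hearts. RORasg/sg 1, the array with the highest 75th percentile, was above every WT heart for C1qa, C1qb and Cd68, below every WT heart for Aif1 and Cd163, and within their range for the other 5, while 12.7% of all genes were above and 42.5% below every WT heart there. WT 4, the dimmer WT array, was outside the range of the other 4 WT hearts for 7 of the 10 markers, and for 6 of those 7 on the side on which RORasg/sg 2, 3 and 4 lay on average. Of all genes, 74.3% were outside that range in WT 4, and 59.8% were outside it on that side, so these counts are near those of the whole array. Compared with the mean of the other WT hearts, WT 4 was at 2.27 for Csf1r, 1.60 for Cd163, 0.95 for C1qc, 0.70 for Aif1 and 0.41 for Adgre1, and at -1.92 for Cd68 and -0.79 for C1qa. It was at 0.10 for Lyve1 and -0.043 for C1qb, the least displaced markers. The part of array brightness in these arrangements was not tested.

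Brightness and genotype were not separate on these arrays, also among arrays of like brightness, and not in a single direction. The WT heart, WT 4, was the brightest of the dimmer arrays, whereas RORasg/sg 1 was the brightest of the others. With brightness as a covariate in limma, the difference of Lyve1 was 0.96 (SE 0.425), that of C1qc 0.72 (SE 0.277) and that of Adgre1 0.43 (SE 0.347), each smaller than without it, while C1qb was at 0.98 (SE 0.353). None passed, with an adjusted p of 1.0 for each. Among the 4 dimmer arrays, 3 RORasg/sg hearts set against WT 4, Lyve1 differed by 2.60, C1qc by 1.38 and C1qb by 0.70. Among the 5 brighter arrays, RORasg/sg 1 set against 4 WT hearts, Lyve1 differed by -0.12, C1qc by 0.13 and C1qb by 1.24. In the brighter set 1 of 10 markers, C1qb, and 1.29% of all genes passed the limma threshold as higher. That call compares 1 RORasg/sg heart, with no spread of its own, with WT hearts, and is no comparison of the genotypes.

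The calls depended on whether RORasg/sg 1 was included. Without that heart, every RORasg/sg array was dimmer than every WT array, so genotype and brightness cannot be told apart there. In that setting, 3 of the 10 markers passed the limma threshold as higher, beside 28.5% of all genes called higher, and the median of all genes moved to 0.68. They were Lyve1 at 2.68 (SE 0.334; adjusted p 0.00234), C1qc at 2.15 (SE 0.303; adjusted p 0.00372) and Adgre1 at 1.08 (SE 0.320; adjusted p 0.0300). C1qb was at 0.66 (adjusted p 0.0832). Over all alternatives tried, the adjusted p ran up to 1.0 for each of these 4 markers. The 3 of 10 markers called is close to the share of all genes called higher in that same setting.

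Arrays 1 and 2 of each genotype shared a slide, as did arrays 3 and 4, and WT 5 was on another. Within the first slide Lyve1 differed by 1.23 (SE 1.01) and C1qc by 1.48 (SE 0.934), and within the second by 2.88 (SE 0.630) and 1.74 (SE 0.524). The RORasg/sg hearts of the first slide were unlike each other. RORasg/sg 1 read 0.18 for Lyve1 and 3.90 for C1qc, inside the WT range, and RORasg/sg 2 read 2.95 and 6.49. C1qb differed by 0.98 (SE 0.695) and 0.64 (SE 0.559). The signs of these 3 markers were the same on both slides, with 2 hearts of each genotype per slide, and none passed an adjusted p of 0.05.

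The genes that make and keep macrophages were read next to their markers. Of 12 growth factors and lineage factors, 7 had higher and 5 lower means in RORasg/sg hearts, with a median difference of 0.26. Il34, a ligand of CSF1R, differed by -2.16 (SE 0.697), Nr1h3, the nuclear receptor LXRα, by -1.52 (SE 0.532) and Cebpa, a myeloid transcription factor, by 0.93 (SE 0.418). None passed, the smallest limma adjusted p among these 3 being 0.386 for Il34. Csf1, the other ligand, chosen here after its value was seen, differed by 0.12 (SE 0.489).

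Other genes of resident macrophages were spread around 0. Of 20, 12 had higher and 8 lower means, and their median was 0.035, below the 0.41 of all genes. The 3 with the smallest unadjusted p were higher in RORasg/sg hearts: Siglec1, a sialic acid-binding receptor, by 1.93 (SE 0.819), Pf4, a chemokine, by 1.40 (SE 0.613), and Cd9, a tetraspanin, by 1.13 (SE 0.501). Genes typical of monocytes recruited from blood had a median of 0.066, with 8 higher and 6 lower of 14. Lgals3, a galectin, was at 1.23 (SE 0.480) and the fibronectin gene Fn1 at 1.20 (SE 0.471).

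Genes shared by myeloid cells numbered 24, of which 16 had higher and 8 lower means, with a median of 0.27. Msr1, a scavenger receptor of macrophages, differed by 2.01 (SE 0.628), Fcgr3, an antibody receptor, by 1.14 (SE 0.416) and Cyba, a subunit of the phagocyte oxidase, by 1.16 (SE 0.463), the last pair with all RORasg/sg hearts above all WT hearts. Complement partners of C1q and complement receptors had a median of 0.38, with 10 of 15 higher. Cd46, a complement regulator, differed by -2.20 (SE 0.532) and was above background in 1 of 4 RORasg/sg hearts, while C4b, the fourth component, was at 1.09 (SE 0.562). Endocytic and hyaluronan relatives of the markers, 15 genes, had a median of 0.11, with Hyal2, a hyaluronidase, at -1.16 (SE 0.455), the fatty acid receptor Cd36 at -0.96 (SE 0.374) and the lipoprotein receptor Scarb1 at 0.91 (SE 0.490). None of the genes in these 3 lists passed the adjusted threshold.

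Other cell types that a whole heart holds were read as lists in the same hearts. The median of all genes differed with signal level and was itself 0.41 over all levels. Above it lay 7 of the 10 neutrophil, 7 of the 12 lymphocyte and 4 of the 10 dendritic and mast cell genes. By list median, RORasg/sg 1 was below every WT heart for neutrophil (-3.89, lowest WT -3.13) and lymphocyte genes (-3.23, lowest WT -3.00). RORasg/sg 2, 3 and 4 were above every WT heart for both lists. Neutrophil genes had 8 of 10 higher with a median of 0.47, and their summed level ran from 1.36 to 2.57 in WT and from 1.09 to 3.64 in RORasg/sg hearts. The granule protein genes Elane, Camp and Ltf differed by 1.09 (SE 0.484), 0.99 (SE 0.495) and 1.10 (SE 0.728). Lymphocyte genes had 9 of 12 higher, and their summed level ran from 1.58 to 2.22 in WT and from 1.04 to 3.97 in RORasg/sg hearts, with Cd3d of the T cell receptor complex at 2.47 (SE 0.809) and Cd79a of the B cell receptor complex at 0.79 (SE 0.471). Dendritic and mast cell genes had 8 of 10 higher with a median of 0.33, and Flt3, a receptor of dendritic cell precursors, was at 1.0 (SE 0.685), Siglech of plasmacytoid dendritic cells at 0.70 (SE 0.506) and the mast cell protease gene Mcpt4 at 1.01 (SE 0.787). The markers themselves summed to 5.02 to 6.21 in WT and 5.19 to 7.32 in RORasg/sg hearts.

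Cardiomyocyte genes mostly had lower means, with 10 of 12 lower and a median of -0.79. At an unadjusted limma p under 0.05, 5 of the 12 were lower, beside 6.62% of all genes. Their list median ran from 5.89 to 6.36 in WT hearts. It was 5.97, 5.71, 4.17 and 4.20 in RORasg/sg 1 to 4, so RORasg/sg 1 lay inside the WT range. Pln, which encodes the calcium pump regulator phospholamban, differed by -1.46 (SE 0.471), the ventricular light chain gene Myl2 by -1.29 (SE 0.440) and the natriuretic peptide gene Nppa by -1.20 (SE 0.434). Fibroblast genes had a median of 0.032, with Col3a1 at 1.51 (SE 0.375) and Col1a1 at 1.67 (SE 0.559), both fibrillar collagens, and Dcn, a matrix proteoglycan, at -0.65 (SE 0.351). Vascular endothelial genes had a median of -0.50, with the receptor Tek at -2.67 (SE 1.02), the sialomucin Emcn at 1.21 (SE 0.471) and the adhesion molecule Pecam1 at -1.50 (SE 0.623). The red cell list had a median of 0.33, and Alas2, the erythroid haem synthesis enzyme, was at -4.42 (SE 1.11) and above background in 3 of 4 RORasg/sg hearts, while Slc4a1, the red cell anion exchanger, was at 0.67 (SE 0.564). No gene of any of the 14 lists passed the adjusted threshold, and the part of these cell types in the marker values was not tested.

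**Figure D4:**
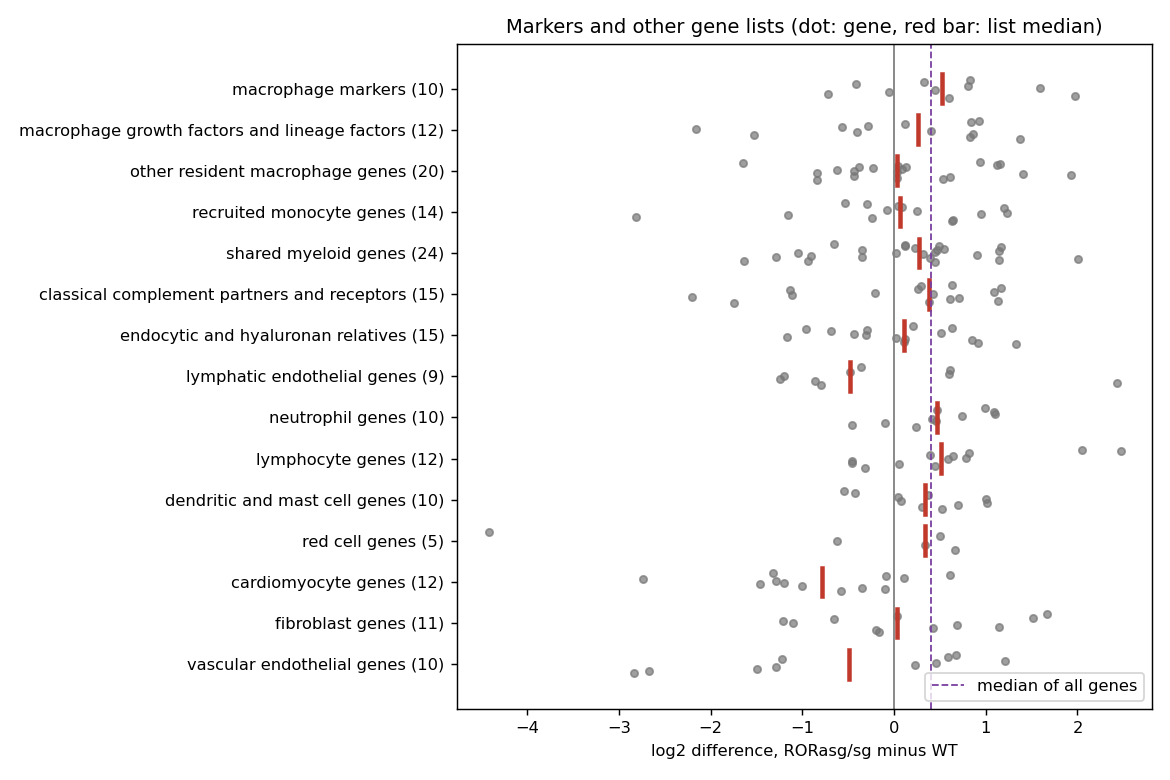
Log2 differences (RORasg/sg minus WT) of the 10 markers and of 14 other gene lists, 1 dot per gene, with the number of genes in brackets, the list median as a red bar and the median of all genes, 0.41, as a dashed line. The marker median of 0.52 lies near that of all genes, the lymphocyte and neutrophil medians lie close to it, and the cardiomyocyte median of -0.79 lies farthest to the left. The dashed line takes genes of all signal levels together, although the median of all genes differed with signal level.

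Genes outside these lists whose values over the 9 hearts were most like the average of the markers, each first centred on its own mean, were Antxr1, a collagen-binding receptor (Pearson r 0.971), C2cd2l (0.970), Crmp1 (0.956), Cnpy4 (0.955) and Med9 (0.954), out of 17652 genes compared. The hearts share genotype and array brightness, so these values are descriptions of the same 9 arrays.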

How the data were processed

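Single-colour Agilent mouse arrays of 9 hearts were analysed. The authors' scanner files were made with Feature Extraction 12.0.0.7, per the file headers. Per the labels' protocols, 70 ng of RNA was amplified and 5 ug of the product carried Cy3. The deposited intensity is each spot's processed signal, linear and background-subtracted, and the value table equals it exactly on all 9 arrays. Control spots and 758 outlier spots were dropped, and repeat spots of a probe averaged. Log2 values were taken relative to the 75th percentile of their array. A probe had to stand well above background on 4 arrays or more (36408 of 41174 did, among them all 15 marker probes). The kept probe with the highest mean stood for a gene, which gave 27778 genes. The standard error of such a probe comes from the fit over genes, and that of a second probe from the fit over all kept probes.

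RefSeq accessions of assembly GRCm38.p6 named 28223 probes. Genotypes were compared by limma (version 3.58.1, lmFit and eBayes, trend on) under R 4.3.3, Benjamini-Hochberg adjusted over all genes at 0.05. The procedure was tested on simulated data with each gene's WT spread in both groups and independent noise. That test does not cover the larger spread of the RORasg/sg hearts, seen for every marker but Csf1r, or noise shared by genes. The hearts came from separate mice, and their number sets the precision. Ratios were compared by exact permutation over 126 splits of the hearts. The text names every marker and its probes, the 3 genes with the smallest p in each of 14 other lists, Rora, and the 5 genes most like the markers. Of the genes so chosen, some are not reported here. The markers, lists and tests were chosen with earlier results of these data known. Alternatives were other normalizations and filters, normexp with an offset of 50, slide or replicate number as a block, and subsets of the arrays.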

Additional observations from a re-analysis of the deposited data

Results flagged for a closer look

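Csf1r read 2.77 in WT 4 on the scaled log2 scale of its brightest probe, and the nearest of the other WT hearts was at 0.66. The gap between them is a share of 0.791 of the whole WT range, above the 0.71 critical value of Dixon's test for 5 hearts. The other probes of Csf1r read -1.04 and -1.30 in WT 4, the lowest and the highest of the 5 WT hearts for the respective probe.

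Cd163 read 4.23 in WT 4 and 2.90 in the nearest other WT heart, a gap share of 0.723. Both values belong to the dimmest WT array. Groups of 4 or 5 hearts were tested for 20 marker and genotype combinations, and chance picks out about 1 group in 20.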

How the results depend on the processing

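For the 10 markers, 230 alternative differences were computed: 201 kept their sign and their side of the threshold, 4 passed it only under the alternative and 25 changed sign. The cause was not tested for any change below. The number of genes called, 1 over all hearts, was 2 with quantile normalization, 3 on the unscaled signal (a setting chosen after seeing the data), 9 with the replicate block and 1189 in the 5 brighter arrays. It was 0 with normexp, with probes above background on all arrays, with the mean of a gene's probes, with the slide as a block, within either slide and in the 4 dimmer arrays. Leaving out 1 heart gave 0 to 10397 genes, the latter without RORasg/sg 1. The number of markers called was 1 in the brighter arrays and 0 to 3 without 1 heart. The median of the markers was -0.050 on the unscaled signal. Replicate numbers did not pair the hearts (correlations of same-numbered hearts 0.165, 0.018, -0.367 and 0.372), and the replicate block called 0 markers.

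C1qa turned to 0.096 with normexp, 0.41 with array brightness as covariate and 0.92 among brighter arrays. Cd68, at -0.055 over all hearts, was 0.21 with normexp, 0.11 with either block, 0.062 and 0.16 within slides 1 and 2, 1.06 with the covariate, 1.58 among brighter and 0.81 among dimmer arrays, and -0.73 to 0.47 without 1 heart. Aif1 was -0.24 unscaled, -0.21 with the covariate and -0.37 among brighter arrays. Cd163 was -0.13 unscaled, -0.30 with the covariate, -0.26 among brighter and -0.50 among dimmer arrays. Csf1r was 0.19 within slide 1, and Lyve1 -0.12 among brighter arrays. Without 1 heart, the C1qa to C1qb ratio ran from -1.58 to -0.98, C1qa to C1qc from -3.06 to -1.44, C1qb to C1qc from -1.48 to -0.37, and Lyve1 to the other markers from 1.22 to 2.28. Signal over background limits the second probes of Adgre1 and Lyve1 most. The deposited signal was also low on some arrays for Cd68, down to 18.4, and C1qa, down to 24.6. Both changed sign with normexp.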
